A study of Homo sapiens with 3 samples.

Results

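CAL27/OXA cells were compared directly with CAL27/5FU cells. Both lines derive from CAL27, an established cell line of oral squamous cell carcinoma (OSCC), a cancer of the squamous lining of the mouth. CAL27/5FU cells are labelled 5-fluorouracil resistant and were kept in 10 μM 5FU, CAL27/OXA cells are labelled oxaliplatin resistant and were kept in 10 μM OXA, and the CAL27 cells grew without drug. For each line 1 RNA-seq library of total RNA was analysed here. Ratios therefore carry counting error alone, and no replicate test was made. The comparison sets the count of a gene in CAL27/OXA against that in CAL27/5FU, and the CAL27 library enters the scaling and the filter but not the ratio. A gene was taken when its counts averaged 10 or more across the libraries, a condition met by 13676 of the 19220 genes in the count table.

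Each line limits what the comparison can show. A resistant line is selected by its drug from a shared parent, and every library reflects that selected population as it stood when RNA was taken. The cells were also in different drugs at that time, so a lasting difference and an acute response to the drug cannot be told apart. For CAL27/5FU the methods of the study describe rising 5FU concentrations over a long period, while the selection of CAL27/OXA is known here from its labels alone. CAL27/OXA had the deepest library with 43455488 counts, CAL27 had 41786182 and CAL27/5FU 37297713. In CAL27, CAL27/5FU and CAL27/OXA, respectively, 15275, 15407 and 15368 genes had at least 1 count.

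5FU is a pyrimidine analogue whose active metabolite blocks thymidylate synthase and whose nucleotides enter RNA and DNA. OXA is a platinum compound that forms adducts and crosslinks on DNA, and platinum is bound by thiols such as glutathione and metallothioneins. Resistance to 5FU is classically linked to its target and to the enzymes that activate or degrade it, and resistance to platinum drugs to uptake, efflux, thiol binding and DNA repair. The squamous origin of the lines is marked by keratins, TP63 and desmosomal proteins.

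In the text that follows, 3 counts in a row refer to CAL27, CAL27/5FU and CAL27/OXA in this order. A log2 ratio is that of CAL27/OXA to CAL27/5FU after TMM scaling (a correction for library size and composition) with a prior count of 2, so that a positive value means a higher level in CAL27/OXA. The interval after a ratio is its exact 95% interval from the pair of counts, which covers counting error only. "Higher" and "lower" without a further word mean more than 2-fold. The member called most abundant per length is the one with the highest FPKM in CAL27/OXA, which need not hold in the other lines. Fewer cells with a transcript and less of it per cell cannot be told apart in these bulk libraries.

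The squamous label of the lines was checked against 14 markers of squamous epithelium, all of which passed the filter. TP63, the master transcription factor of squamous epithelium, had 23645, 9759 and 29498 counts. CDH1, the E-cadherin of epithelial junctions, had 14800, 13459 and 15076 counts. KRT5, a keratin of basal squamous cells, had 286124, 46083 and 72716 counts. The markers given were thus present in all 3 libraries, with KRT5 far below its CAL27 level in both resistant lines. Among the other markers, KRT14 (58222, 948 and 8423 counts), KRT6A (36872, 6617 and 3403) and PKP1 (10588, 507 and 267) were also far below CAL27 in both. SOX2 had few counts in every library (14, 12 and 29). EPCAM went the other way, with 9428, 12457 and 10990 counts. Markers of other cell types were detected in part. Of 11 fibroblast markers 4 passed the filter. COL1A1, a chain of type I collagen, had 1387, 1068 and 1050 counts (log2 ratio -0.21). LUM, the proteoglycan lumican, had 120, 414 and 877 counts (log2 ratio 0.90). The other 2 were PDGFRB and COL1A2, and COL3A1, THY1 and POSTN were at 0 counts in all 3 libraries. Of 11 leukocyte and blood markers 2 passed. Those were CD68, with 3143, 1827 and 5055 counts (log2 ratio 1.28), and CD14, with 637, 1290 and 341 counts (log2 ratio -2.10), while PTPRC, the common leukocyte antigen, had 2, 0 and 0 counts. Of 8 endothelial markers 5 passed the filter, and their most abundant, CDH5, had 43, 338 and 163 counts.

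CAL27/OXA had more genes below than above CAL27/5FU. Of the 13676 genes, 571 (4.18%) were higher in CAL27/OXA, 1146 (8.38%) were lower, and 11959 lay within 2-fold, 10 of them with 0 counts in both resistant lines, so that 12.6% were past 2-fold either way. Genes higher in CAL27/OXA thus made up 33.3% of those past 2-fold. Past 4-fold there were 167 higher and 352 lower genes, and the whole counting interval lay past 2-fold for 319 and 709 genes. The bulk of the transcriptome differed little. The median log2 ratio was 0.0079, the median of its absolute value 0.29, and the middle 90% of the genes, from percentile 5 to percentile 95, lay between -1.37 and 0.90.

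**Figure D1:**
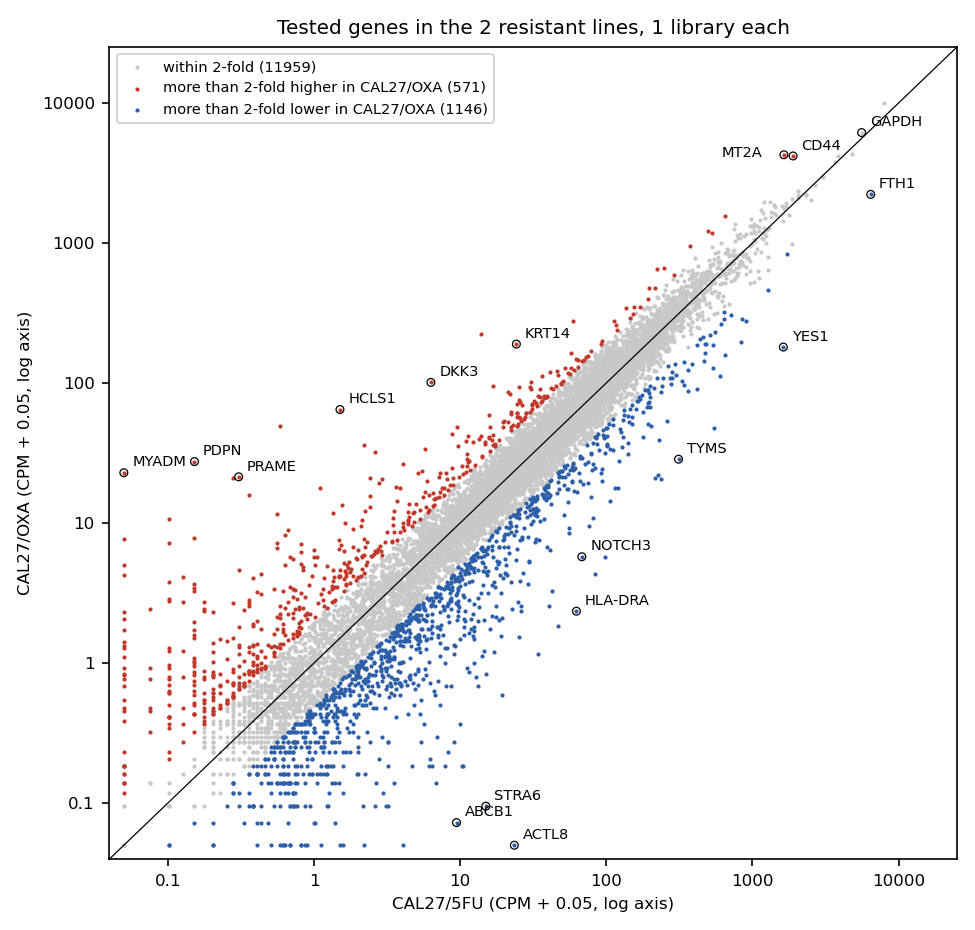
Level of each of the 13676 genes in CAL27/5FU (x axis) and CAL27/OXA (y axis), as CPM plus 0.05 on log axes, 1 library per line. Red points are the 571 genes more than 2-fold higher in CAL27/OXA, blue points the 1146 lower genes, grey points the 11959 genes within 2-fold, the line marks equal levels, and circles mark named genes such as MYADM and PDPN (top left) and ACTL8, STRA6 and ABCB1 (bottom).

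The plot of levels in both lines shows both colours fanning out at low counts, where a single count weighs most on a log scale, and named genes far off the line at high levels too, such as TYMS and FTH1. Genes on the edge of 2-fold were SEC22A (485 and 1101 counts in CAL27/5FU and CAL27/OXA, log2 ratio 1.00) just inside and MPP2 (234 and 534 counts) just outside. On the other side RNF207, with 1517 and 860 counts, stood just inside and IRS1, the insulin receptor substrate, with 4345 and 2461 counts, just outside. Neither pair differs in ratio beyond its counting interval.

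The genes furthest apart were present in 1 resistant line and almost absent from the other. Among the 11541 genes that averaged 100 counts or more, MYADM, a membrane protein of the MAL family (chr19:53866223-53876437, GRCh38), had the largest positive ratio. With 565, 0 and 1014 counts, its level in CAL27/OXA was at least 298-fold higher. PDPN, podoplanin, a mucin-like glycoprotein of the invasive edge of squamous carcinomas (chr1:13583465-13617957), had 666, 4 and 1218 counts, a ratio of 268 with an interval from 105 to 986. AUTS2, a partner of Polycomb complexes, had 453, 0 and 339 counts, and the bound on its ratio was at least 99.6-fold higher. In these 3 genes CAL27 stood near or above CAL27/OXA, and CAL27/5FU was the line with few or no counts. The same held for MAGED1, a MAGE family protein, with 1694, 21 and 2198 counts (log2 ratio 6.40). MAGED1 lies on the X chromosome, as do NUDT11 and POF1B. PRAME, a tumour antigen, had 726, 10 and 948 counts (log2 ratio 6.13). POF1B, an epithelial actin-binding protein, had 505, 12 and 706 counts (log2 ratio 5.49). The other genes described from this end were near absent from CAL27 as well. TMPRSS15, the enteropeptidase that activates trypsinogen, had 0, 2 and 475 counts, a ratio of 209 with an interval from 57.6 to 1733. NUDT11, a phosphatase of inositol pyrophosphates, had 16, 2 and 316 counts. GALNT5, an enzyme of mucin-type glycosylation, had 8, 4 and 343 counts. These 3 transcripts reached a high count in CAL27/OXA alone.

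Among the 10 largest negative ratios, ABCB1 encodes P-glycoprotein, the classical multidrug efflux pump (chr7:87503633-87713323). It had 0, 368 and 1 counts, a ratio of 418 in favour of CAL27/5FU with an interval from 74.5 to 16541. ACTL8, an actin-like protein normally made in testis, had 4, 918 and 0 counts, at least 347-fold higher in CAL27/5FU. DOCK10, an exchange factor for small GTPases, had 8, 351 and 10 counts (log2 ratio -5.04). All 3 were close to absent from both CAL27 and CAL27/OXA. STRA6, the cell surface receptor of retinol-binding protein (chr15:74179466-74212267), had 246, 585 and 2 counts, a ratio of 332 in favour of CAL27/5FU with an interval from 91.5 to 2748. Its transcript was near absent from CAL27/OXA alone. CP, the ferroxidase ceruloplasmin, had 561, 399 and 6 counts (log2 ratio -5.80). CPPED1, a phosphatase, had 751, 409 and 6 counts (log2 ratio -5.83). PLXDC2, a membrane protein with a plexin domain, had 252, 266 and 4 counts (log2 ratio -5.62). In these genes it was CAL27/OXA that stood apart from the other 2 lines. OLFM4, a secreted glycoprotein of epithelial crypts, had 110, 308 and 6 counts (log2 ratio -5.43). GJD3, a connexin, had 99, 319 and 8 counts (log2 ratio -5.16). HLA-DMB, which loads peptides onto MHC class II, had 108, 250 and 6 counts (log2 ratio -5.13). Their CAL27 level lay between the resistant lines, nearer to CAL27/5FU on the log scale.

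**Figure D2:**
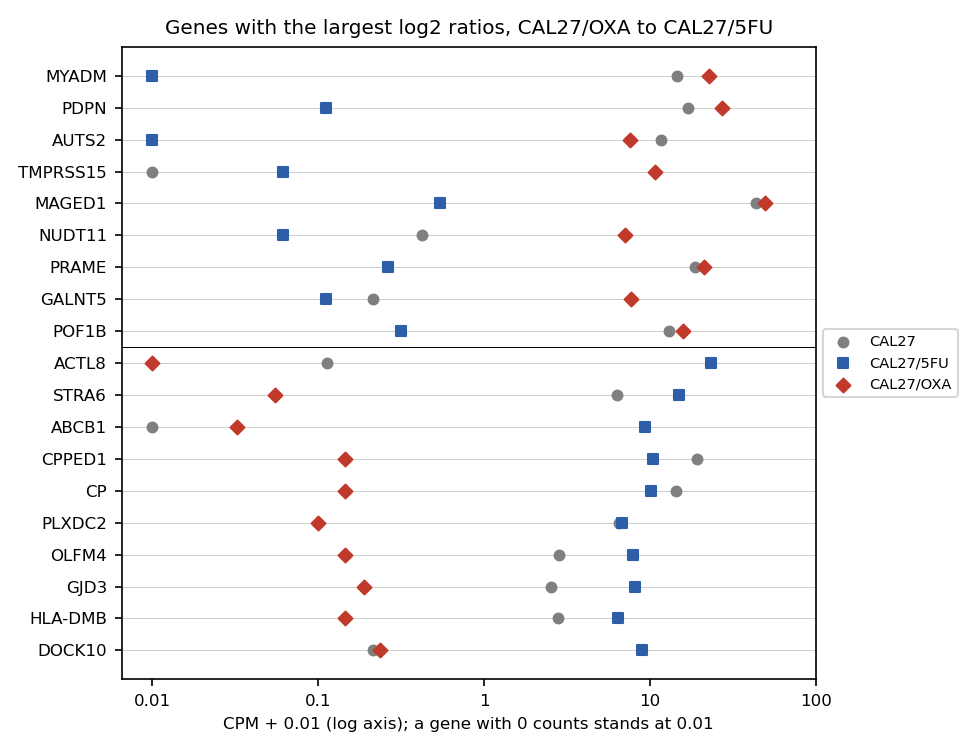
Level of 9 of the 10 genes with the largest positive (upper part) and of the 10 with the largest negative log2 ratio (lower part) in the 3 libraries, as CPM plus 0.01 on a log axis. A circle is CAL27, a square CAL27/5FU and a diamond CAL27/OXA, 1 library each; MYADM and AUTS2 stand at 0.01 in CAL27/5FU and ACTL8 in CAL27/OXA because they had 0 counts there.

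The plot of these genes shows the CAL27 circle at either end of the scale, next to CAL27/OXA for PRAME and next to CAL27/5FU for PLXDC2. Over all genes the CAL27 level was as varied. Of the 571 genes higher in CAL27/OXA, CAL27 was above both resistant lines for 147 (25.7%) and below both for 131 (22.9%). It lay between them for the remainder, in the part of the log2 range nearest CAL27/OXA for 122 genes (21.4%), in the middle part for 94 (16.5%) and nearest CAL27/5FU for 77 (13.5%). Of the 1146 lower genes, CAL27 was above both lines for 316 (27.6%) and below both for 238 (20.8%), near CAL27/5FU for 215 (18.8%), in the middle for 204 (17.8%) and near CAL27/OXA for 173 (15.1%). Since each share rests on a threshold passed by 1 pair of libraries, they are given as a description.

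A few transcripts were absent from 1 resistant line at high depth in the other. Genes with 0 counts in CAL27/5FU and at least 100 in CAL27/OXA were 5, named after their values were seen, and besides MYADM and AUTS2 they were LAMA1, GHR and STXBP6. GHR, the growth hormone receptor, had 12, 0 and 187 counts, at least 54.9-fold higher in CAL27/OXA. STXBP6, a regulator of SNARE complexes, had 0, 0 and 101 counts. In the other direction there were 2 genes, ACTL8 and BICC1, an RNA-binding protein with 8, 156 and 0 counts. A count of 0 allows up to 3 counts, which is 0.0766 CPM in CAL27/5FU and 0.0675 CPM in CAL27/OXA. Of all genes past 2-fold, 53 had 0 counts in 1 of these lines, and for 9 of them the bound from that floor was under 2-fold.

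In fluoropyrimidine metabolism the drug target TYMS and its neighbour ENOSF1 had the most negative ratios. Of 31 genes tested, 1 was higher and 4 were lower in CAL27/OXA, beside 4.18% higher and 8.38% lower over all genes, with a median log2 ratio of 0.08 beside 0.0079 over all genes. TYMS, thymidylate synthase and the target of 5FU, had 1060, 12223 and 1267 counts (log2 ratio -3.45, interval -3.54 to -3.37). ENOSF1, which overlaps TYMS on the opposite strand, had 2343, 21508 and 2119 counts (log2 ratio -3.52). Both genes stood at about the CAL27 level in CAL27/OXA and far above it in CAL27/5FU, and because strandedness is not stated, reads in their overlap may be counted on either gene. CDA, cytidine deaminase, had 1025, 1057 and 192 counts (log2 ratio -2.63). TYMP, thymidine phosphorylase, had 5943, 7705 and 3786 counts (log2 ratio -1.21). Both were below their CAL27 level in CAL27/OXA and at or above it in CAL27/5FU. UMPS, which converts 5FU to its nucleotide, was the higher gene with 1955, 956 and 2701 counts (log2 ratio 1.31). The degrading enzyme dihydropyrimidine dehydrogenase, DPYD, differed little, with 858, 1302 and 1566 counts (log2 ratio 0.08). Per length, the most abundant member in CAL27/OXA was UPP1, uridine phosphorylase, with 3427, 9848 and 12591 counts (log2 ratio 0.17).

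Genes of platinum transport had 1 member past 2-fold on either side (5.26% each, beside 4.18% higher and 8.38% lower over all genes). Of 19 tested, 1 was higher, the organic cation transporter SLC22A3 with 117, 10 and 56 counts (log2 ratio 2.10, interval 1.32 to 3.44), and 1 was lower, the metalloreductase STEAP4 with 149, 240 and 76 counts (log2 ratio -1.81). The median log2 ratio was -0.05. The other genes ranged from -0.94 for STEAP3 to 0.94 for SLC31A2, with LRRC8A, a subunit of volume-regulated anion channels, at 0.85. Of the copper transporters, the importer SLC31A1 had 3324, 3299 and 3536 counts (log2 ratio -0.08), and its paralogue SLC31A2 had 1310, 737 and 1608. The copper pump ATP7A had 540, 413 and 474 counts (log2 ratio 0.02), and its paralogue ATP7B had 281, 390 and 263 (log2 ratio -0.75). Paralogues of both kinds thus had different ratios. Metallothioneins are small cysteine-rich metal-binding proteins. They had 1 higher member, MT2A, with a median log2 ratio of 0.77 over 5 tested of 11 listed genes (0.053 over the 7 with at least 1 count in either resistant library) and a summed level of 1893, 2256 and 5289 CPM. All 5 lie in a stretch of neighbouring genes, chr16:56466836-57536599, in which 18 of 22 genes had a positive ratio, at a median of 0.64. MT2A, by far the most abundant per length, had 49847, 64295 and 189646 counts (log2 ratio 1.38, interval 1.36 to 1.39) and made up most of the summed level. In CAL27/OXA it stood above both other lines. MT1E had 17089, 20648 and 41567 counts (log2 ratio 0.83). MT1M had 76, 258 and 500 counts (log2 ratio 0.77). MT1X had 6415, 2813 and 2876 counts (log2 ratio -0.15). Only the last of these was above its resistant-line levels in CAL27. The MT1 genes are near-identical copies, so the division of reads among them is uncertain. The promoter of MT2A is shown because it carries the sequence classically bound by the metal-sensing factor MTF1. Capitals mark each match to the letters TGCACNC or TGCGCNC on either strand in the 150 bases before the start on the plus strand, chr16:56608434-56608583 in GRCh38.p14.
MT2A: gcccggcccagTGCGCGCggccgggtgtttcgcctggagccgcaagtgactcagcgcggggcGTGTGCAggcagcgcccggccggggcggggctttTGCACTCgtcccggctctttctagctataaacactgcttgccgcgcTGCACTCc
There are 4 matches. A promoter window was found for 2 of the 5 genes, MT1X and MT2A, and both windows of 300 bases matched, beside 29.6% of all 35116 RefSeq windows, so the match does not set MT2A apart from MT1X, whose log2 ratio was -0.15.

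Glutathione and NRF2 target genes, which buffer oxidants and electrophiles, numbered 40. Of these, 1 was higher (2.5%, beside 4.18% over all genes) and 2 were lower (5%, beside 8.38%), with a median log2 ratio of 0.05. NQO1, a quinone reductase, had 8282, 6632 and 15458 counts (log2 ratio 1.04). FTH1, the ferritin heavy chain that stores iron, had 183252, 252549 and 98849 counts (log2 ratio -1.54, interval -1.55 to -1.53) and was the most abundant member of the list per length. GSTM2, a glutathione transferase, had 40, 34 and 16 counts (log2 ratio -1.17), and its interval reached -0.37. The median was thus close to that of all genes, with FTH1 below both other lines in CAL27/OXA.

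Drug efflux transporters of the ABC family split by gene. Of 10 tested, 2 were higher (20%, beside 4.18% over all genes) and 3 were lower (30%, beside 8.38%). The median log2 ratio was -0.41 (-0.25 from FPKM with a pseudocount of 1). ABCG2, the breast cancer resistance protein, had 57, 26 and 244 counts (log2 ratio 2.96, interval 2.46 to 3.69). ABCC6 had 11, 5 and 33 counts (log2 ratio 2.16). The latter rests on few reads. ABCC3, a pump of organic anions, had 2344, 7569 and 2276 counts (log2 ratio -1.92). ABCC11 had 35, 19 and 8 counts (log2 ratio -1.22, interval -2.83 to -0.17) and also rests on few reads. ABCB1 and ABCC3 thus had their highest level in CAL27/5FU and ABCG2 in CAL27/OXA, while ABCC3 was at about its CAL27 level in CAL27/OXA. In CAL27/OXA the most abundant member per length was ABCC1, with 5468, 5470 and 4708 counts (log2 ratio -0.40). In CAL27/5FU ABCC3 stood above it, at 57.5 FPKM beside 22.3 for ABCC1.

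DNA repair genes were seldom past 2-fold, beside 12.6% of all genes. Nucleotide excision repair, which removes platinum adducts, had 1 higher and 0 lower genes of 29 and a median log2 ratio of 0.13. None of the 9 mismatch repair genes was past 2-fold (log2 ratios -0.60 to 0.51), and none of the 37 Fanconi anaemia and homologous recombination genes (-0.83 to 0.68). Base excision repair and direct reversal had 2 higher genes of 20, of which MGMT passed the filter through CAL27 and has a bound under 2-fold. MBD4, a thymine glycosylase, had 2233, 1106 and 2712 counts (log2 ratio 1.11). MGMT, which removes alkyl groups from guanine, had 687, 0 and 6 counts, so that it was near absent from both resistant lines, and against the floor in CAL27/5FU it was at least 1.76-fold higher. Among p53 targets 2 of 32 were higher (6.25%, beside 4.18% over all genes) and 1 lower (3.12%, beside 8.38%), with a median of 0.08. SFN, the 14-3-3 sigma protein, had 43529, 20652 and 52368 counts (log2 ratio 1.16). TP53I11 had 147, 12 and 118 counts (log2 ratio 2.93). SPATA18 had 30, 45 and 15 counts (log2 ratio -1.63). In the BCL2 family 1 of 17 was higher (5.88%) and 3 were lower (17.6%). BMF, a BH3-only protein that promotes apoptosis, had 1642, 1591 and 112 counts (log2 ratio -3.98, interval -4.30 to -3.73). BIK, of the same class, had 728, 790 and 366 counts (log2 ratio -1.29). Both were lowest in CAL27/OXA. BCL2L14 had 32, 83 and 2 counts (log2 ratio -4.53). BOK was the higher member with 1833, 1423 and 3297 counts (log2 ratio 1.03). BMF was thus low in CAL27/OXA alone.

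Genes of the WNT pathway, the subject of the study, are given by their role, and their counts may be read beside the 4.18% higher and 8.38% lower over all genes. WNT3, a ligand of the canonical pathway (chr17:46762506-46833154), had 304, 609 and 751 counts (log2 ratio 0.12, interval -0.04 to 0.28). CTNNB1, β-catenin, had 10426, 8187 and 11219 counts (log2 ratio 0.27). WNT3 stood above CAL27 in both resistant lines. Of 11 ligands tested, 0 were higher and 2 were lower in CAL27/OXA, WNT4 with 694, 43 and 15 counts (log2 ratio -1.57) and WNT10B with 19, 61 and 18 (log2 ratio -1.82). The median of the ligands was -0.42, and it moved to -0.85 over the 15 with at least 1 count in either resistant library, to -0.64 over the 12 averaging 10 counts in these libraries and to -0.18 from FPKM with a pseudocount of 1. WNT7B, the most abundant ligand per length, had 1109, 1817 and 4057 counts (log2 ratio 0.98). None of 15 receptors was past 2-fold, and 12 of them had a negative ratio (median -0.38, or -0.25 from FPKM with a pseudocount of 1, range -0.93 to 0.24). Of the 9 genes of the β-catenin destruction complex, 1 was higher, the kinase GSK3B with 4602, 2337 and 5457 counts (log2 ratio 1.04). Among 16 TCF/LEF factors and β-catenin targets, 3 were higher and 1 was lower, with a median of 0.12. CCND2, cyclin D2, had 505, 2233 and 7281 counts (log2 ratio 1.52). CD44, the hyaluronan receptor and most abundant member per length, had 96387, 74281 and 185923 counts (log2 ratio 1.14, interval 1.13 to 1.15). Both were highest in CAL27/OXA among the 3 lines. NKD1, a feedback inhibitor, had 32, 15 and 39 counts (log2 ratio 1.10). EPHB2, a receptor tyrosine kinase, was the lower target with 1648, 3084 and 1413 counts (log2 ratio -1.31). The secreted antagonists held the widest gap of the pathway. DKK3 had 1391, 245 and 4485 counts (log2 ratio 4.0, interval 3.83 to 4.2). IGFBP4, an IGF-binding protein also listed as a WNT antagonist, had 255, 2565 and 1012 counts (log2 ratio -1.52), with 1 higher and 1 lower among 6 tested.

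**Figure D3:**
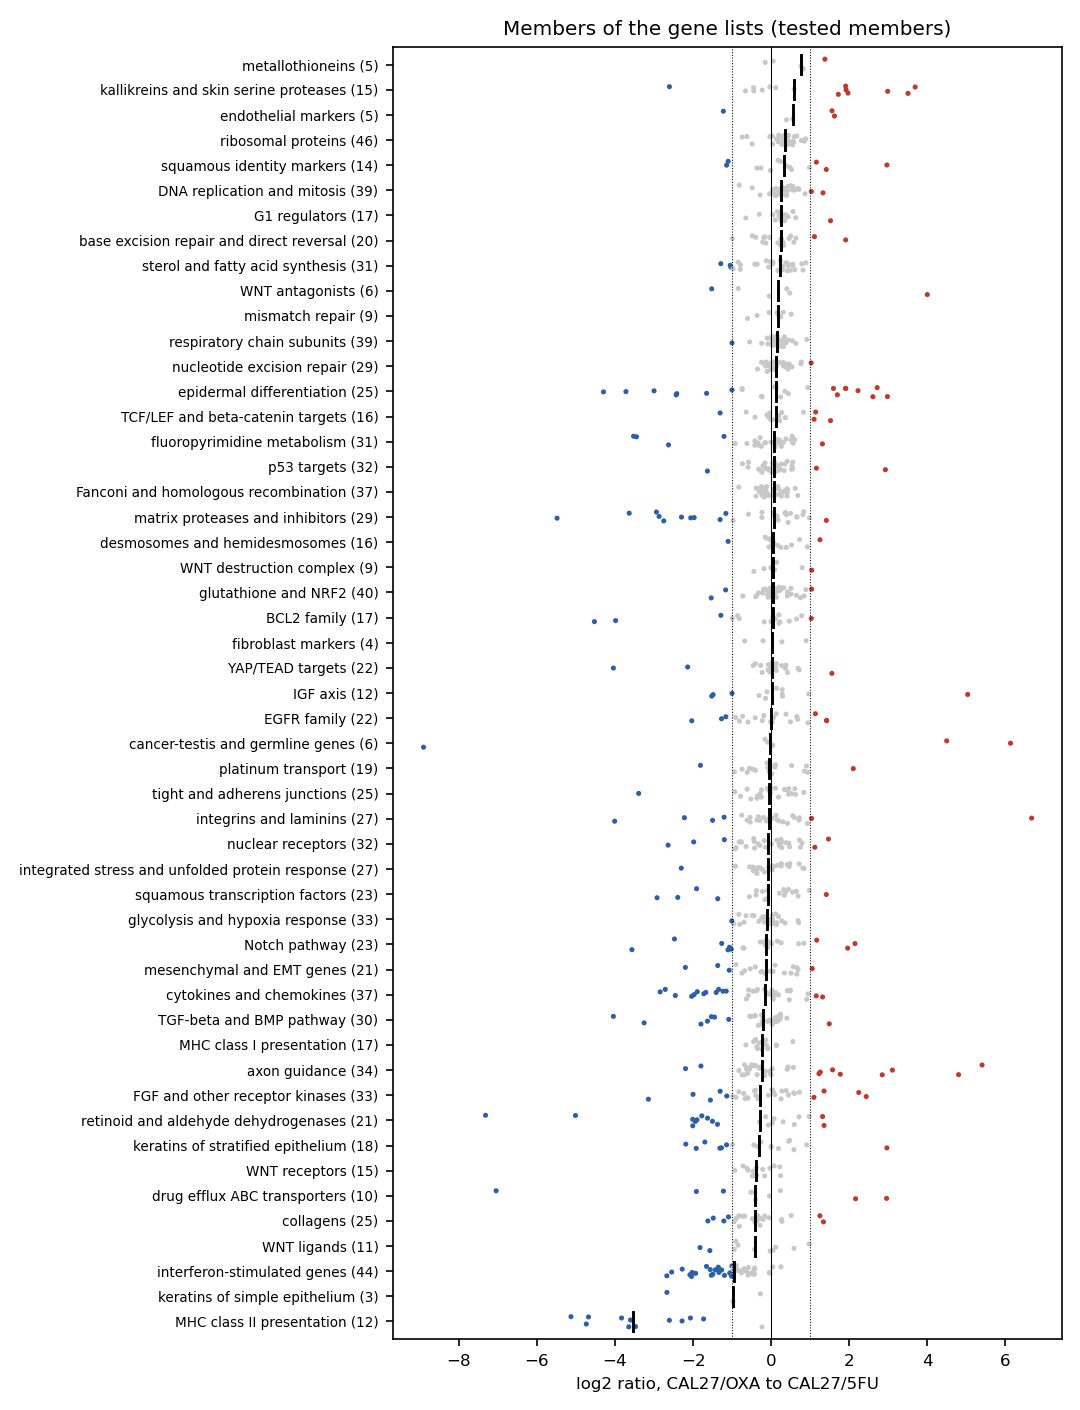
Log2 ratio of CAL27/OXA to CAL27/5FU (x axis) of each tested member of the gene lists, with the number tested in parentheses and lists ordered by their median (black bar). Red points are more than 2-fold higher, blue points more than 2-fold lower, grey points within 2-fold, and dotted lines mark 2-fold; MHC class II genes lie lowest with a median of -3.54 and metallothioneins highest with 0.77, and points are offset vertically for legibility.

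The plot of the gene lists shows most medians within 0.5 of 0, with MHC class II, interferon-stimulated genes and simple keratins below them. MHC class II genes had the median furthest from 0 of all lists. MHC class II molecules present peptides to helper T cells, and CIITA is the coactivator that switches their genes on. All 12 tested genes of this list had a negative ratio and 11 were lower in CAL27/OXA (91.7%, beside 8.38% over all genes). Each of these 11 had its whole interval past 2-fold, and the median of the list was -3.54 (-2.09 from FPKM with a pseudocount of 1). HLA-DRA, the alpha chain shared by DR molecules, had 750, 2444 and 102 counts (log2 ratio -4.74, interval -5.07 to -4.48). CIITA had 422, 739 and 67 counts (log2 ratio -3.60, interval -4.03 to -3.28). The DR chain and the coactivator were thus both lowest in CAL27/OXA. CD74, the invariant chain and most abundant member per length, had 9658, 21152 and 5724 counts (log2 ratio -2.07). HLA-DPB1 had 28, 115 and 3 counts (log2 ratio -4.68). For each of these the CAL27 level lay between the resistant lines. HLA-DRB1 (212, 1019 and 102 counts) and HLA-DRB5 (114, 486 and 42) share reads, so their division is uncertain. CTSS, the protease cathepsin S, was within 2-fold with 2391, 3224 and 3113 counts (log2 ratio -0.23). MHC class II genes are otherwise made by professional antigen-presenting cells, whose markers PTPRC and MS4A1 were at 0 to 2 counts in every library, while CD14 had a log2 ratio of -2.10 in the same direction and CD68, the most abundant marker of that list, one of 1.28 in the other. The leukocyte and blood markers summed to 97.3, 80.0 and 122 CPM in the order of the counts, with CD3D, MS4A1 and the haemoglobin genes HBB, HBA1 and HBA2 at 0 in all 3, and their part in the result was not tested.

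MHC class I genes did not follow. None of the 17 tested was past 2-fold, beside 12.6% of all genes, and the median was -0.22. B2M, the light chain and most abundant member per length, had 59825, 73154 and 91357 counts (log2 ratio 0.14). The lowest ratio was that of the peptide transporter TAP1, with 9204, 14697 and 10654 counts (log2 ratio -0.65).

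Interferon-stimulated genes, which type I interferon switches on through the ISGF3 complex, mostly had a negative ratio. Of 44 genes tested, 0 were higher (beside 4.18% over all genes) and 20 were lower (45.5%, beside 8.38%). Of the 20 lower genes, 18 had the whole interval past 2-fold. A negative ratio was found for 42 genes of the list, at a median of -0.96. Summed over the list, CAL27/5FU reached 13993 CPM, CAL27/OXA 6992 and CAL27 6781. CMPK2, a mitochondrial nucleotide kinase, had 852, 4460 and 792 counts (log2 ratio -2.67). IFI44L had 1553, 8918 and 1728 counts (log2 ratio -2.55, interval -2.63 to -2.48). The CAL27 and CAL27/OXA levels of these genes were close. MX2, a dynamin-like antiviral GTPase, had 2487, 10207 and 2386 counts (log2 ratio -2.28). IFI6 had 6092, 32796 and 8790 counts (log2 ratio -2.08). In these genes CAL27/OXA stood near CAL27, and CAL27/5FU was 4-fold or more above CAL27/OXA. IFITM3, the most abundant member per length, had 15918, 37823 and 23122 counts (log2 ratio -0.89). The members with a positive ratio were PARP9 (log2 ratio 0.25) and the transcription factor IRF1, with 8657, 7253 and 8477 counts (log2 ratio 0.04). IFIT1, which binds foreign RNA and had 3784, 14215 and 3926 counts (log2 ratio -2.04), is among the genes whose promoters are shown.

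The promoters of IFI44L, IFI6 and IFIT1 are shown because they belong to this group of genes that differed together and carry GAAA, 2 free bases and GAAA again, the core of the interferon response element. Capitals mark the match on either strand in the 150 bases before the RefSeq start (GRCh38.p14). They lie at chr1:78620298-78620447 on the plus strand, chr1:27672193-27672342 on the minus strand and chr10:89392473-89392622 on the plus strand, respectively.
IFI44L: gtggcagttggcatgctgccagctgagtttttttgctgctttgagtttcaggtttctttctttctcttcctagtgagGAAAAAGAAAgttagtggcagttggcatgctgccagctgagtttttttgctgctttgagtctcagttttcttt
IFI6: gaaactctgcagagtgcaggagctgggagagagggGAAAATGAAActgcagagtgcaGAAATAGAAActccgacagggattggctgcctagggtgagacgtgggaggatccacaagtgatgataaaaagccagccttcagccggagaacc
IFIT1: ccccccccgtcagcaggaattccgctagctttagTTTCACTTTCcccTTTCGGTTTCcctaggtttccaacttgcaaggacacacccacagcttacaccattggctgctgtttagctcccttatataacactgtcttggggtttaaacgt
IFI44L has 1 match and the others 2 each, those of IFIT1 on the opposite strand. A promoter window of 300 bases was found for 34 of the 44 genes. Of their 46 windows, 29 (63.0%) held a match, against 3.57% of all 35116 windows. Of the 34 genes with a window 24 matched, and of the 14 lower ones among them 10. The match thus does not set the lower genes apart within the list. Such a match describes letters in a window and says nothing about binding. The other motifs searched on both strands were the antioxidant element TGACNNNGC, found in 12 of 37 windows of the NRF2 list (32.4%, all windows 13.3%), the AP-1 site TGANTCA, in 6 of 19 windows of the matrix protease list (31.6%, all windows 7.71%), and the TCF/LEF site CTTTGAT, in 1 of 16 windows of the β-catenin target list (6.25%, all windows 2.62%).

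**Figure D4:**
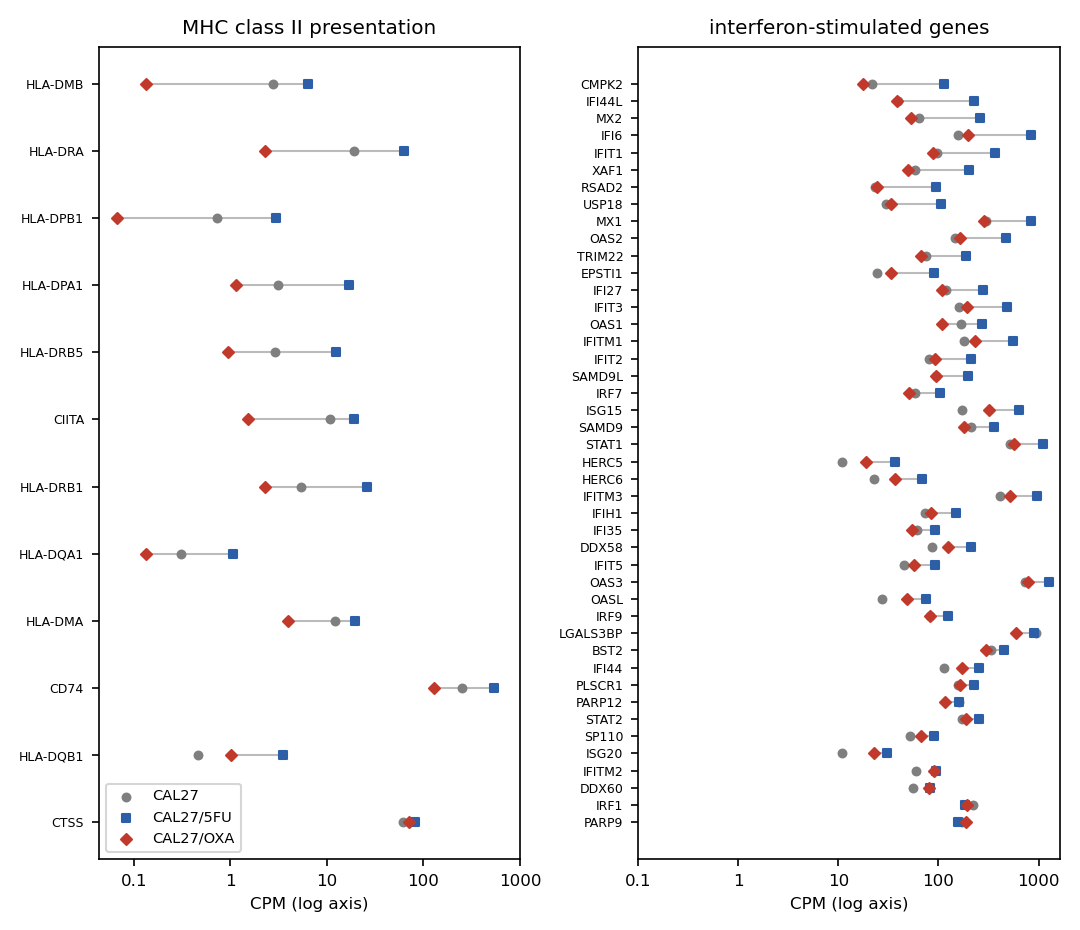
Level in CPM (log axis) of the 12 MHC class II genes (left) and the 44 interferon-stimulated genes (right) in CAL27 (circle), CAL27/5FU (square) and CAL27/OXA (diamond), 1 library each, ordered by log2 ratio, with a line joining the resistant lines. The MHC class II genes run from CAL27/5FU down past CAL27 to CAL27/OXA, except HLA-DQB1 and CTSS, whereas the interferon-stimulated genes of CAL27/OXA mostly sit on the CAL27 level.

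The plot of both groups sets them apart by the place of CAL27. It lay between the resistant lines for most MHC class II genes, and next to CAL27/OXA for the interferon-stimulated genes with the most negative ratios.

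Secreted inflammatory genes held lower members at a larger share than all genes. Of 37 cytokines, chemokines and NF-κB targets, 2 were higher (5.41%, beside 4.18% over all genes) and 12 lower (32.4%, beside 8.38%), all 12 with the whole interval past 2-fold, at a median of -0.17 (-0.37 over the 40 with at least 1 count in either resistant library). The chemokine CCL5 had 71, 227 and 34 counts (log2 ratio -2.84). CXCL11 had 612, 2171 and 374 counts (log2 ratio -2.71). CXCL10 had 723, 1149 and 236 counts (log2 ratio -2.46). These 3 attract T cells and are interferon-responsive. Complement factor B, CFB, had 21296, 25272 and 6991 counts (log2 ratio -2.04). IL1B, the most abundant member per length, did not differ past 2-fold, with 12917, 25799 and 26816 counts (log2 ratio -0.13). The higher members were IL1RN, the interleukin 1 receptor antagonist, with 804, 61 and 176 counts (log2 ratio 1.32), and IL23A with 75, 63 and 162 (log2 ratio 1.16).

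The squamous programme differed gene by gene and not in a shared direction. Of the 14 squamous markers, 3 were higher (21.4%, beside 4.18% over all genes) and 2 lower (14.3%, beside 8.38%) in CAL27/OXA. Their median log2 ratio was 0.32 (0.18 from FPKM with a pseudocount of 1). Of the markers of other cell types that passed the filter, 0 of 4 fibroblast genes were past 2-fold, and 2 of 5 endothelial genes were higher and 1 lower. Of 18 keratins of stratified epithelium, 1 was higher (5.56%, beside 4.18% over all genes) and 6 were lower (33.3%, beside 8.38%). KRT1 and KRT4 are among the 18 through CAL27 alone, with 0 counts in both resistant lines and so no measured ratio, and 15 averaged 10 counts in the resistant libraries. KRT14, the partner of KRT5 in basal cells, had 58222, 948 and 8423 counts (log2 ratio 2.97, interval 2.87 to 3.07), while KRT5 itself, the most abundant per length, had a log2 ratio of 0.48. KRT14 thus separated the lines more than its partner. KRT6A, a keratin of activated epithelium, had 36872, 6617 and 3403 counts (log2 ratio -1.14). KRT80 had 7353, 18184 and 6359 counts (log2 ratio -1.70). KRT81, a hair keratin, had 17, 87 and 20 counts (log2 ratio -2.19). KRT6A, KRT6B and KRT6C share reads, and their division is uncertain. KRT5 and KRT14 thus lay far below CAL27 in both lines, and KRT14 lowest in CAL27/5FU. Of 3 keratins of simple epithelium KRT7 was lower, with 493, 1609 and 285 counts (log2 ratio -2.67). KRT8 had 31681, 49766 and 28662 counts (log2 ratio -0.98). All 3 had a negative ratio. Among 16 desmosomal and hemidesmosomal genes 1 was higher and 1 lower (6.25% each, beside 4.18% and 8.38% over all genes). COL17A1, which anchors basal cells to their membrane, was higher with 66476, 25563 and 69034 counts (log2 ratio 1.25). PKP1, plakophilin 1, was lower with 10588, 507 and 267 (log2 ratio -1.10). Of 25 tight and adherens junction genes 0 were higher and 1 was lower (4%, beside 8.38% over all genes), TJP3 with 318, 259 and 26 counts (log2 ratio -3.39).

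Of 23 squamous transcription factors, 1 was higher (4.35%, beside 4.18% over all genes) and 4 were lower (17.4%, beside 8.38%). TP63 was the higher one (log2 ratio 1.41, interval 1.38 to 1.45). ELF3, an ETS factor of epithelial differentiation, had 7125, 2463 and 742 counts (log2 ratio -1.91). OVOL1 had 404, 147 and 30 counts (log2 ratio -2.39). Both factors act in the differentiation of epithelia. BARX2 had 61, 26 and 2 counts (log2 ratio -2.92). GRHL1 had 3526, 872 and 382 counts (log2 ratio -1.37). The 4 lower factors had their highest level in CAL27. Epidermal differentiation genes went both ways, with 8 higher (32%) and 7 lower (28%) of 25 and a median of 0.13. The sign of this median turned with the filter, to -0.25 over the 19 genes that averaged 10 counts in the resistant libraries alone and to -0.24 over the 16 averaging 50 counts or more. Several cornified envelope precursors were higher at counts near the floor and passed the filter mainly through CAL27. IVL, involucrin, had 74, 0 and 15 counts (at least 4.41-fold higher). SPRR1B had 331, 1 and 18 counts (log2 ratio 2.61). Both had far higher counts in CAL27. LCE3D had 28, 4 and 42 counts (log2 ratio 2.72). SPRR2A had 47, 0 and 8 counts. SPRR1A and SPRR2E, each with 0 and 6 counts in the resistant lines, had a bound of 1.76, under 2-fold. Of the antimicrobial S100 proteins 4 were lower, S100A12 at few counts. S100A9, the most abundant per length, had 62285, 23448 and 4980 counts (log2 ratio -2.42). S100A8 had 12401, 2974 and 420 counts (log2 ratio -3.00). Their proteins pair as calprotectin. S100A7 had 6970, 1673 and 142 counts (log2 ratio -3.72). S100A12 had 129, 53 and 1 counts (log2 ratio -4.29). The summed level of the list was 3403, 1343 and 727 CPM. S100A7 has a close copy and SPRR2 genes are near-identical, so their counts are uncertain.

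Kallikreins, the skin serine proteases that shed the cornified layer, included several that were higher at low counts. Of 15 genes of this list tested, 7 were higher (46.7%, beside 4.18% over all genes) and 1 was lower (6.67%, beside 8.38%), at a median of 0.59. The median was 0.12 over the 13 genes that averaged 10 counts in the resistant libraries alone, and 0.082 from FPKM with a pseudocount of 1. Among the 7, KLK11 (67, 0 and 6 counts) and KLK7 (83, 0 and 5 counts) passed the filter through CAL27, and the bounds on their ratios, 1.76 and 1.47, were under 2-fold. KLK5 had 1175, 20 and 319 counts (log2 ratio 3.69, interval 3.16 to 4.54). KLK8 had 941, 6 and 100 counts (log2 ratio 3.51). KLK5 is known to activate other kallikreins. KLK10 had 643, 14 and 141 counts (log2 ratio 2.99). KLK6 had 87, 6 and 33 counts (log2 ratio 1.97). All 4 were below CAL27 in both resistant lines, most so in CAL27/5FU. TMPRSS4, a membrane serine protease, was the lower member with 1227, 305 and 55 counts (log2 ratio -2.61). The inhibitor SPINT2, the most abundant member per length, had 25504, 25075 and 27800 counts (log2 ratio -0.03).

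Mesenchymal genes went both ways. Of 21, 1 was higher (4.76%, beside 4.18% over all genes) and 3 were lower (14.3%, beside 8.38%), at a median of -0.14. VIM, vimentin, had 27, 863 and 1395 counts (log2 ratio 0.51). CDH2, N-cadherin, had 185, 1351 and 957 counts (log2 ratio -0.68), so that both stood well above CAL27 in either resistant line. SNAI2, a repressor of epithelial genes, was the higher member with 1844, 1174 and 2768 counts (log2 ratio 1.05). TGFBI, a matrix protein, had 12846, 16361 and 4046 counts (log2 ratio -2.20). Matrix proteases and their inhibitors held 10 lower genes of 29 (34.5%, beside 8.38% over all genes), each with its whole interval past 2-fold. In the other direction 1 was higher (3.45%, beside 4.18%). MMP13, a collagenase, had 55, 548 and 48 counts (log2 ratio -3.64). SERPINE2, protease nexin 1, had 108, 648 and 94 counts (log2 ratio -2.94). Both had their highest level in CAL27/5FU. ADAMTS9 had 1, 84 and 0 counts (at least 31.8-fold higher in CAL27/5FU). TIMP3, a metalloprotease inhibitor, had 84, 25 and 2 counts (log2 ratio -2.87). MMP13, SERPINE2 and ADAMTS9 were high in CAL27/5FU and near the CAL27 level in CAL27/OXA. The urokinase gene PLAU, most abundant per length, had 24198, 17161 and 24896 counts (log2 ratio 0.35). Of 25 collagens 2 were higher (8%, beside 4.18% over all genes) and 4 lower (16%, beside 8.38%). COL8A2 (490, 660 and 1900 counts, log2 ratio 1.34) and COL6A1 (3211, 3978 and 1614 counts, log2 ratio -1.48) were among them. Of 27 integrins and laminins 2 were higher (7.41%) and 4 lower (14.8%). LAMA1, a laminin chain, had 3, 0 and 220 counts (at least 64.6-fold higher). ITGB2, the leukocyte integrin chain, had 102, 497 and 33 counts (log2 ratio -4.01).

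Receptors and ligands of developmental pathways differed singly. In the Notch pathway 3 of 23 were higher (13%, beside 4.18% over all genes) and 6 lower (26.1%, beside 8.38%). NOTCH3 had 10120, 2663 and 253 counts (log2 ratio -3.57, interval -3.77 to -3.39). It was highest in CAL27. The glycosyltransferase MFNG had 298, 199 and 1009 counts (log2 ratio 2.15). NOTCH4 had 34, 61 and 276 counts (log2 ratio 1.96). The ligand DLL1 had 3048, 1208 and 3082 counts (log2 ratio 1.17). Receptors of this family were thus on opposite sides. Of 22 YAP/TEAD targets 1 was higher (4.55%) and 2 lower (9.09%), near the 4.18% and 8.38% over all genes. Of 30 genes of TGF-β and BMP signalling 1 was higher (3.33%) and 7 lower (23.3%). TGFB2, a ligand in both lists, had 26, 988 and 66 counts (log2 ratio -4.04, interval -4.47 to -3.73). FST, follistatin, which binds activins, had 3512, 1011 and 3226 counts (log2 ratio 1.49). Each of them set CAL27/5FU apart from the other lines. FJX1 had 5965, 8748 and 29209 counts (log2 ratio 1.56). In the EGFR family 3 of 22 were higher and 3 lower (13.6% each, beside 4.18% and 8.38% over all genes). The ligands AREG (43, 84 and 259 counts, log2 ratio 1.42) and NRG1 (1471, 773 and 2353, log2 ratio 1.42) stood against BTC (111, 374 and 102, log2 ratio -2.03). EGFR itself had 32753, 30287 and 29347 counts (log2 ratio -0.23). The third higher member was the receptor ERBB4, at low counts (16, 11 and 30, log2 ratio 1.13), and the other ligands ranged from -1.27 for EGF to 0.68 for TGFA. INSR, the insulin receptor, had 214, 3 and 181 counts (log2 ratio 5.04, interval 4.16 to 8.02). It was the 1 higher of 12 IGF axis genes (8.33%, beside 4.18% over all genes), and 3 were lower (25%, beside 8.38%). IGFBP3, which binds IGFs and is most abundant per length, had 261616, 50305 and 20373 counts (log2 ratio -1.49). Of 33 FGF and other receptor kinase genes 4 were higher (12.1%, beside 4.18% over all genes) and 5 lower (15.2%, beside 8.38%). FGFR2 (407, 86 and 538 counts, log2 ratio 2.44) was opposite to FGFR3 (7805, 1562 and 805, log2 ratio -1.14). Axon guidance genes, which steer migrating cells, held 8 higher (23.5%, beside 4.18% over all genes) and 2 lower (5.88%, beside 8.38%) of 34. Their median was nevertheless -0.22 (-0.082 with GC and length trends removed). SEMA5A had 2, 0 and 90 counts (at least 26.4-fold higher). ROBO2 had 0, 2 and 122 counts (log2 ratio 4.80). Both were near absent from CAL27 and CAL27/5FU. SEMA6A had 43, 30 and 310 counts (log2 ratio 3.11). NTN1, netrin 1, had 172, 15 and 136 counts (log2 ratio 2.85).

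Retinoid handling was described by another list. Of 21 genes of retinoid metabolism and aldehyde dehydrogenases, 2 were higher (9.52%, beside 4.18% over all genes) and 10 lower (47.6%, beside 8.38%), at a median of -0.30 (-0.14 over the 19 averaging 50 counts or more). Beside STRA6, ALDH3B2 had 1436, 60 and 0 counts, at least 22.7-fold higher in CAL27/5FU than in CAL27/OXA. ALDH1L1, a folate enzyme, had 14, 105 and 28 counts (log2 ratio -2.01). The former was highest in CAL27 and the latter in CAL27/5FU. CYP26A1, which degrades retinoic acid, had 7, 20 and 4 counts (log2 ratio -2.01). The higher genes were LRAT, which esterifies retinol, with 89, 67 and 198 counts (log2 ratio 1.36), and CYP26B1 with 69, 156 and 445 (log2 ratio 1.32). The paralogues CYP26A1 and CYP26B1, of the same reaction, thus differed in opposite directions. The ratio of CYP26A1 rests on few reads, with an interval from -4.51 to -0.93. Of 32 nuclear receptors 2 were higher and 3 lower, among them RORB (20, 57 and 183 counts, log2 ratio 1.47) and PPARG (45, 194 and 54 counts, log2 ratio -1.98).

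Growth and metabolism differed by small ratios. Members past 2-fold may be read beside the 4.18% higher and 8.38% lower over all genes. Numbers of positive ratios and list medians may be read beside the median log2 ratio of 0.0079 over all genes, which is near 0. Of 39 genes of DNA replication and mitosis, 35 had a positive ratio, with 2 higher (5.13%) and 0 lower and a median of 0.26. MCM2, a subunit of the replicative helicase, had 9955, 5350 and 15252 counts (log2 ratio 1.33). PCNA had 13144, 12676 and 20546 counts (log2 ratio 0.51). Among 17 G1 regulators 15 were positive, at a median of 0.26, and CCND2 was the higher one. Ribosomal protein genes had 42 positive ratios of 46, at a median of 0.37 (0.20 with GC and length trends removed), and none was past 2-fold. The lowest of them were RPS7 (log2 ratio -0.74), RPL13 (-0.62) and RPS20 (-0.49), and the highest was RPS28 (0.88). Summed over the list, CAL27/OXA stood at 31025 CPM, CAL27/5FU at 25045 and CAL27 at 34184. Respiratory chain subunits held 0 higher and 1 lower (2.56%) of 39 (median 0.14, or 0.0040 with those trends removed). Glycolysis and hypoxia-response genes held 0 and 1 (3.03%) of 33 (median -0.11). Genes of the integrated stress and unfolded protein response held 0 and 1 (3.7%) of 27 (median -0.07). Sterol and fatty acid synthesis held 0 and 3 (9.68%) of 31 (median 0.24, or 0.15 with the trends removed). GAPDH, the glycolytic enzyme used as a reference gene, had 366244, 218804 and 273127 counts (log2 ratio 0.14). Its level was highest in CAL27. SCD, which desaturates fatty acids, had 87692, 13420 and 6232 counts (log2 ratio -1.29). NUPR1, a stress-induced chromatin protein, had 218, 138 and 30 counts (log2 ratio -2.30). Of 46 cancer-testis and germline genes 6 passed the filter, and besides PRAME and ACTL8 the Piwi protein PIWIL1 was past 2-fold with 4, 0 and 47 counts.

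Genes past 2-fold were not spread evenly along the chromosomes. Positions in GENCODE 29 (GRCh38) were known for 13418 of the tested genes. Chromosome 18 had the largest share of lower genes, 37 of 178 (20.8%), beside 8.38% over all genes. Chromosome 3 had the largest share of higher genes, 70 of 754 (9.28%), and chromosome 19 followed with 68 of 891 (7.63%), beside 4.18% over all. Of 13188 windows of 11 neighbouring tested genes, the median was above 1.5-fold in 410 and below it in the other direction in 305. They joined into 55 higher and 33 lower runs, and 9 runs of at least 20 windows held 380 genes, of which 64 were higher and 106 lower.

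The run with the most genes covered chr16:77722492-90044975, from NUDT7 to GAS8, in which 78 of 81 genes had a negative ratio and 41 were lower (median -1.0). At the start of chromosome 2, chr2:38814-20225433, from FAM110C to SDC1, 51 of 53 genes were negative and 26 lower (median -0.97). On chromosome 18, chr18:158383-21633524, from USP14 to SNRPD1, 43 of 49 were negative and 32 lower (median -1.22). This run holds TYMS, ENOSF1 and YES1, a SRC family kinase with 6372, 63720 and 8025 counts (log2 ratio -3.17), and also LAMA1 with its positive ratio. On chromosome 3, chr3:113716460-122575203 had 13 higher genes of 37 (median 0.88), and chr3:126342635-131350465 had 17 of 32 (median 1.04). GSK3B and HCLS1, an actin-binding protein of haematopoietic cells with 397, 57 and 2872 counts (log2 ratio 5.43), lie in the former run and MCM2 and MBD4 in the latter. The run chr19:50025714-52139922, with 17 of 27 genes higher (median 1.72), contains the kallikrein cluster. Without KLK7 and KLK11, whose bounds are under 2-fold, 15 of 25 genes were higher and the median was 1.56.

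**Figure D5:**
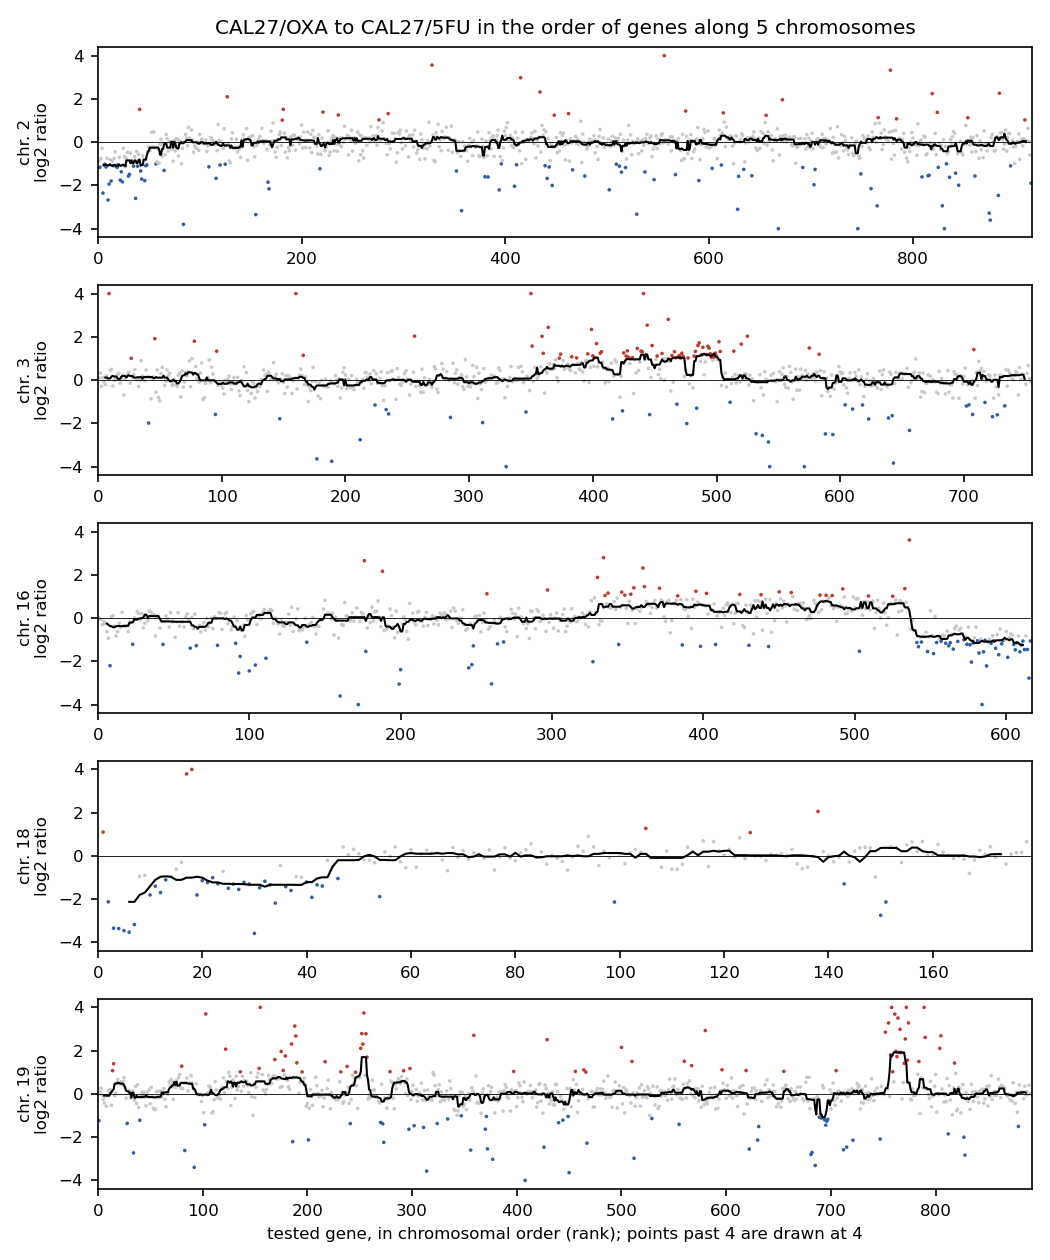
Log2 ratio of CAL27/OXA to CAL27/5FU (y axis) of tested genes in their order along chromosomes 2, 3, 16, 18 and 19 (x axis, rank), with red points more than 2-fold higher, blue points more than 2-fold lower, grey points within 2-fold, and points past 4 drawn at 4. The black line is the median of 11 neighbouring genes, which lies near -1 at the start of chromosomes 2 and 18 and the end of chromosome 16 and near 1 in the middle of chromosome 3.

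The plot along chromosomes shows these stretches as steps of the running median. Several members of the gene lists lie inside the 9 long runs, among them UMPS, ITGB5, CMPK2, RSAD2, MVD, NDUFV2, RPS7, RPL13 and RPS28. Outside these 9 runs the interferon-stimulated genes kept 18 lower genes and a median of -0.95, whereas fluoropyrimidine metabolism kept 0 higher and 2 lower genes and a median of 0.08. Shorter runs hold further members, such as TYMP, the IFIT genes, MX1 with MX2, OAS1 to OAS3, and the HLA class II genes of the MHC, so these counts are not free of neighbouring genes. The keratins KRT7, KRT8, KRT18, KRT80, KRT81 and the KRT6 genes share a lower run on chromosome 12, and the 5 metallothioneins a higher one on chromosome 16. The number of DNA copies was not measured, and its part in these runs was not tested.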

How the data were processed

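RNA-seq of 3 libraries was analysed, 1 each for CAL27, CAL27/5FU and CAL27/OXA cells, with groups taken from the sample labels. The authors deposited unnormalized read counts per gene symbol (19220 genes) and FPKM values made from them (19225 genes). The submitters' processing notes name CASAVA 1.8, HISAT2 2.0.5 and GRCh38 (hg38), without roles. The counting tool, the annotation and the strandedness are not given in the sources used here. A further 3 per-sample columns of each kind of value were not used. Their names end in -2 where those used end in -1, which may mark a second library of each line, but no sample label here describes them.

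Counts were scaled with TMM factors (0.932, 1.05 and 1.02 for CAL27, CAL27/5FU and CAL27/OXA) over the 3 libraries (edgeR 4.0.16, R 4.3.3) and expressed as log2 CPM (prior count 2). The filter was an average of 10 counts, and a gene past 2-fold was called higher or lower. Exact 95% Clopper-Pearson intervals (scipy 1.17.1) were taken on the pair of counts, and a count of 0 was set to a floor of 3 counts per library for bounds. Neither covers variation between cultures. Libraries had 37297713 to 43455488 counts, and the median interval was 0.23 wide on the log2 scale. The 52 gene lists (1285 genes) came from general knowledge of the pathways and overlap. The comparison, the lists and the genes named were chosen with earlier results of these data known. Named genes were 11 anchors (TYMS, ABCB1, MGMT, WNT3, CTNNB1, CDH1, CDH2, VIM, KRT14, KRT5 and GAPDH), the 10 largest positive and negative ratios among genes averaging 100 counts or more, and in each list up to 4 members at either end and the most abundant by FPKM in CAL27/OXA. DPYD, SLC31A1, ATP7A, HLA-DRB1, HLA-DRB5, CD74, IFIT1, GHR, STXBP6, BICC1, YES1, HCLS1 and a few further members were named after their values were seen. A few genes that the rule selects, 1 of them among the 10 largest positive ratios, are not reported here.

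Positions came from GENCODE 29 (GRCh38) and promoters from RefSeq (GRCh38.p14, windows from 250 bases before to 50 after a start). The counts of higher and lower genes, the list medians and the log2 ratios of named genes were recomputed with library sizes from DESeq2 1.42.0, upper quartiles, plain totals or TMM over the resistant libraries alone, with other filters and prior counts, the deposited FPKM values with a pseudocount, removal of GC and length trends (lowess, statsmodels 0.14.6, span 0.3), a 4-fold threshold and the whole interval past 2-fold. Counts within lists, shares by chromosome, runs of genes and the place of CAL27 were not recomputed, apart from 1 run without genes near the floor, a choice made after seeing the data. The calculation was tested on simulated data.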

Additional observations from a re-analysis of the deposited data

Results flagged for a closer look

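Of the 5 genes listed in the FPKM table but not in the count table, 2 had a deposited FPKM in the resistant lines above the CAL27 value, and they entered no ratio. NOC2L, a nucleolar protein, had 78.5 FPKM in CAL27/5FU and 70.4 in CAL27/OXA, against 68.6 in CAL27. Divided by the TMM factors used for the counts, these became 74.8 and 68.9, against 73.6, so that CAL27/OXA lay below CAL27. SAMD11 had 0.157 and 0.0631 FPKM, against 0.0187. Without counts these values have no counting interval, and the other 3 genes, all olfactory receptors, were listed at 0 in every library.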

How the results depend on the processing

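No paired analysis was possible because each line has 1 library here and the groups share fewer than 2 replicate numbers. For the same reason leaving out a replicate was not run, and the spread between cultures was not analysed here. Counting error limits genes at low counts.

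Lower genes outnumbered higher ones under each alternative run. Among the 442 single genes recomputed, no ratio past 2-fold turned its sign. Most alternatives shift all ratios alike or shrink them, so they could hardly turn a ratio of that size. Other genes past 2-fold were not followed singly. DESeq2 size factors, TMM of the resistant libraries, upper quartile, total counts and prior counts of 0.5 and 5 gave 510 to 598 higher and 1072 to 1214 lower genes. With at least 1 count in either resistant library there were 981 higher and 1861 lower of 16035 genes, and with a mean of at least 50 counts 369 higher of 12206. FPKM with a pseudocount of 1 gave 165 higher and 437 lower, and 153 and 415 with a mean FPKM of at least 1, since the pseudocount shrinks the ratio of low genes. A 4-fold threshold left 167 and 352, and the whole interval past 2-fold 319 and 709.

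A list median was counted as moved when it left the range from the median lower to the median upper bound of its members. A number of higher or lower genes was counted as moved when it differed from the main one by more than 1.5 times. By these rules 658 values of both kinds stayed and 48 moved. The numbers at 4-fold and with the whole interval past 2-fold, which are stricter thresholds, are among those that moved. The cause of the moves given next was not tested. With at least 1 count in either line, medians became 0.053 for metallothioneins, 0.33 for WNT antagonists, -0.081 for receptor kinases, 0.55 for cancer-testis genes and -1.03 for leukocyte markers. With a mean of at least 50 counts they were 0.14 for nuclear receptors, -0.14 for retinoid genes and -1.22 for endothelial markers. With GC and length trends removed they were 0.18 for the WNT destruction complex, -1.0 for simple keratins, 0.25 for desmosomes, -0.23 for collagens, 0.076 for the IGF axis, 0.15 for sterol synthesis, 0.0040 for respiratory chain subunits and 0.20 for ribosomal proteins. Under total counts, simple keratins had -1.02, desmosomes 0.019, MHC class I -0.26 and ribosomal proteins 0.33. FPKM with a pseudocount of 1 gave -1.01, 0.018, -0.26 and 0.33 for these with or without its filter, and a pseudocount of 0.1 gave -1.02, 0.019, -0.26 and 0.33. MHC class II went to -2.09 (pseudocount 1), -2.25 (with the filter) and -3.13 (pseudocount 0.1). With the FPKM filter the IGF axis had -0.14 and endothelial markers -0.74. For 442 single genes that the naming rule selects or the text names, 3675 values stayed within their interval and 653 moved. Within their range, some medians still shifted by over 1.5 times or turned their sign. Epidermal differentiation went from 0.13 to -0.25 with the filter on the resistant libraries, -0.24 with a mean of at least 50 counts and -0.24 with the FPKM filter. Kallikreins went from 0.59 to 0.12, 0.35 and 0.19 under these, and to 0.082 from FPKM with a pseudocount of 1. WNT ligands went from -0.42 to -0.85 with at least 1 count in either line, -0.64 with the filter on the resistant libraries and -0.18 from FPKM with a pseudocount of 1. Matrix proteases went from 0.068 to -0.27 with the FPKM filter.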
